A study of Mus musculus with 4 samples.

Results

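The cadherin superfamily genes described here are 41 mouse genes taken from a fixed list of symbols: 23 cadherins (Cdh genes), 11 protocadherins that lie outside the clustered protocadherin loci, the 3 Celsr genes and the 4 Fat genes. All 41 were found by symbol among the 21887 protein-coding genes that RefSeq places on GRCm38.p6. The data are ChIP-seq maps of BRG1/BRM, the ATPases of BAF (SWI/SNF) chromatin remodellers, made with the J1 antibody in wild type primary cortical neurons. Neurons came from mouse embryos at E16.5 and were used at 6 days in vitro, either at the basal KCl level or after 1 h in 50 mM KCl. The KCl cultures had been silenced on day 5 with tetrodotoxin, a sodium channel blocker (1 µM), and APV, an NMDA receptor antagonist (100 µM), and the labels leave unsaid whether the basal cultures were treated alike. Each condition had 1 IP library and 1 input library, 4 samples in all, and the enriched regions (islands) of the 2 IP libraries are the data used here.

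The KCl list held 20966 islands with 1433200 IP reads, and the basal list held 711 islands with 142021 IP reads. No difference between the conditions has a replicate check, so none is tested, and a gene without an island in one list is a gene without a call there. Fold is the authors' ratio of IP to control reads per island after scaling for library size. Brackets after a fold give its 95% exact (Clopper-Pearson) interval, which lets both read counts vary and covers counting error only. In the KCl list, 25.2% of all protein-coding genes had an end island (one lying no farther than 2 kb from either end of the gene). Of marker genes, 9 of 10 for cortical neurons, 1 of 7 for interneurons and 3 of 5 for astrocytes had one. So did 2 of 5 for the oligodendrocyte lineage, 0 of 5 for microglia and 1 of 4 for endothelium. The marker lists are short and were not weighted by gene length. Islands record occupancy and do not measure expression.

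Cadherins are calcium-dependent adhesion proteins that bind partners on neighbouring cells through repeated extracellular domains. Type I and type II classical cadherins connect to actin through catenins, and in the cortex they sort neurons, guide axons and stabilize synapses. The non-clustered delta protocadherins signal to actin through other partners, Celsr proteins act in planar polarity and axon tract formation, and Fat proteins pair with Dachsous ligands. Some members are known mainly from other tissues: Cdh1 and Cdh3 from epithelia and placenta, Cdh5 from endothelium, Cdh15 from muscle, Cdh16 from kidney and Cdh17 from gut.

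After depolarization, BRG1/BRM islands lay at the ends of 8 of 13 type II cadherin, 5 of 5 delta-2 protocadherin and 3 of 4 Fat genes. They lay at 0 of 7 cadherins known mainly from non-neural tissue. Median gene lengths of these sets were 153, 56.2, 123 and 46.1 kb, in that order. The share of all genes with an end island rose with length, from 20.3% under 50 kb to 55.9% at 500 kb and over. In the KCl list, 23 of the 41 members (56.1%) had an end island, where 25.2% of all protein-coding genes had one. Members are long, with a median length of 123 kb against 17.2 kb for all genes, and long genes have islands more often. When each member was given the share of all genes in its own length band, the average over the members was 38.6%, or 15.8 genes. The members' excess over that value lay in genes of less than 500 kb, with 4 of 11 members against 20.3% of all genes under 50 kb, 11 of 17 against 39.9% between 50 and 200 kb, and 5 of 6 against 48.0% between 200 and 500 kb. Among genes of 500 kb and over, 3 of 7 members had an end island, against 55.9% of all genes of that length.

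**Figure D1:**
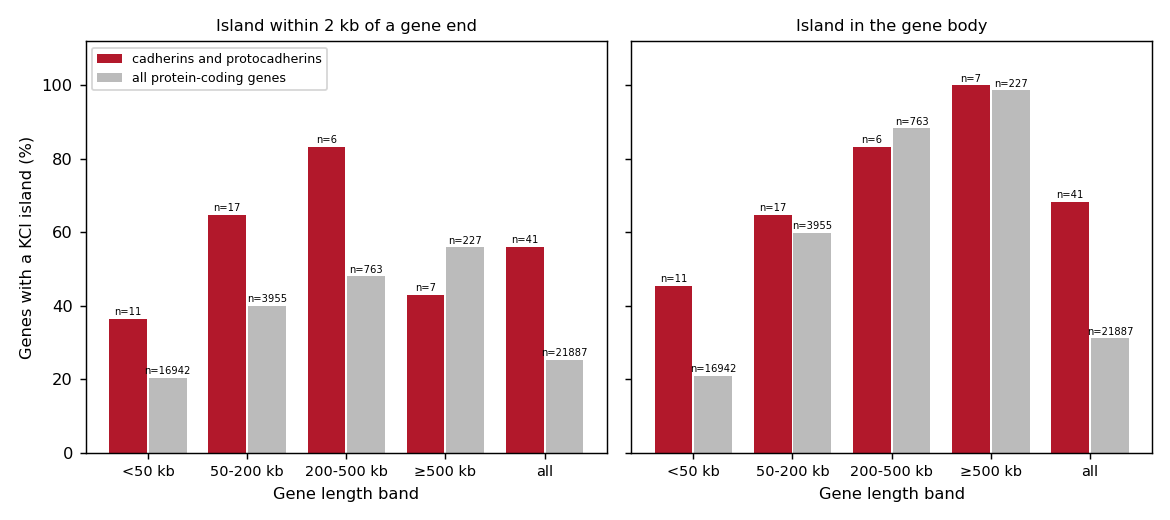
Bars give the percentage of genes with a KCl island within 2 kb of a gene end (left) and in the gene body (right), by gene length band, for the 41 cadherin and protocadherin genes (red) and all protein-coding genes (grey), with the number of genes above each bar. At gene ends the members stand above all genes in every band except 500 kb and over (42.9% against 55.9%), while for gene bodies the sets are closer in genes over 50 kb (64.7% against 59.8%, 83.3% against 88.3%, and 100% against 98.7%).

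The gene body gave less separation. An island overlapped the body of 28 members (68.3%), compared with 31.1% of all genes and a band-weighted 60.2%. With 50 kb added on either side, 34 members (82.9%) had an island, compared with 59.4% of all genes and a band-weighted 76.7%. Much of the difference in these shares from all genes therefore goes with gene length.

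In basal neurons only Pcdh10 and Cdh2 had an island in any of these windows. Both had 1 within 2 kb of an end (2 of 41 members, against 0.411% of all genes), both had 1 in the body (against 1.27%), and no further member was added within 50 kb (against 2.94%). With 2 genes called, a share of members carries little weight. All 3 basal islands were overlapped by a KCl island, and 3 of the 170 KCl islands at members overlapped a basal island.

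Pcdh10 encodes a delta-2 protocadherin known for axon growth and for activity-dependent synapse elimination. Its basal island covered 2800 bp on the upstream side of the start (chromosome 3, 45375401 to 45378200). It counted 68 IP and 42 control reads, 1.84-fold [1.23 to 2.77]. The KCl island over the same place was wider, 7200 bp (45374801 to 45382000), and counted 252 IP and 92 control reads, 1.72-fold [1.35 to 2.21]. A second basal island, 18.6 kb inside the gene (45396601 to 45397400), had 28 IP and 11 control reads, 2.89-fold [1.40 to 6.44]. It was overlapped by a 600 bp KCl island of 44 IP and 6 control reads, 4.61-fold [1.96 to 13.2]. The pairing of inputs with IP libraries as controls is not given in the labels, and of the 8 islands with identical coordinates in both lists, 0 had equal control reads. At both places the intervals overlap.

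Of the 5 type I cadherin genes, only the 2 longest, Cdh2 (220 kb) and Cdh4 (457 kb), had an end island. The other type I genes span 19.0 to 66.9 kb. Over all genes, the share with one was 20.3% under 50 kb, 39.9% between 50 and 200 kb and 48.0% between 200 and 500 kb. Cdh2, which encodes N-cadherin, the main classical cadherin of neural tissue and synapses, had 4 KCl islands in its body and 7 within 50 kb. A 7600 bp KCl island covered its higher-coordinate end (chromosome 18, 16804001 to 16811600) and counted 212 IP and 75 control reads, 1.78-fold [1.36 to 2.34]. The basal island there was 2200 bp wide with 54 IP and 39 control reads, 1.57-fold [1.02 to 2.44]. At the opposite end, 1.08 kb outside the gene, an 800 bp KCl island held 39 IP reads against 1 control read, 24.5-fold [4.15 to 992], so its size is poorly fixed. The 3 islands inside Cdh2 away from its ends were weak, with folds of 1.38, 1.43 and 2.24, and the intervals of the first and second included 1. Cdh4, the gene of R-cadherin, had a single KCl island, over its lower-coordinate end (2.22-fold [1.28 to 4.05], 60 IP and 17 control reads), although it spans 457 kb. Cdh1, Cdh3 and Cdh15 had no island at an end or in the body. Cdh1 (E-cadherin) had 2 KCl islands within 50 kb, and both lay inside the neighbouring gene Tango6.

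Type II classical cadherins guide the sorting and wiring of neuron classes. Of their 13 genes, 11 had a KCl island in the body and 8 at an end. They range in length from 10.8 kb (Cdh24) to 1150 kb (Cdh12), with a median of 153 kb. Of all genes, 21.0% under 50 kb had a body island, 59.8% between 50 and 200 kb and 88.3% between 200 and 500 kb. At 500 kb and over, 98.7% had one. In the same order of length bands, 20.3%, 39.9%, 48.0% and 55.9% had an end island. The largest end fold was that of Cdh22, at 3.14-fold [1.67 to 6.41] with 60 IP and 12 control reads in 2400 bp. Cdh10 followed with a broad island of 6200 bp over its start (224 IP and 63 control reads, 2.23-fold [1.68 to 3.00]). Cdh7 reached 2.16-fold [1.26 to 3.89], and its island began about 2 kb inside the gene. Cdh20 had 161 IP and 50 control reads over 5800 bp at its start, 2.02-fold [1.46 to 2.84]. The islands of Cdh6 (1.70-fold [1.19 to 2.49]), Cdh11 (1.69-fold [1.18 to 2.47]) and Cdh8 (1.54-fold [1.13 to 2.11]) were weaker. Cdh9, a synaptic cadherin of hippocampal mossy fibres, had 2 islands near its start, of 1.74-fold [0.979 to 3.23] and 1.44-fold [0.838 to 2.58], and both intervals included 1. Cdh12 and Cdh18 had islands in the body and none at an end, Cdh5 had 1 in its body (3.10-fold [1.86 to 5.48]), and Cdh19 and Cdh24 had none within 50 kb.

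All 5 delta-2 protocadherin genes had a KCl end island, against 20.3% of all genes under 50 kb and 39.9% between 50 and 200 kb. Besides Pcdh10 these were Pcdh19, an X-linked epilepsy gene (77 IP and 27 control reads, 1.79-fold [1.14 to 2.89]), Pcdh17 (269 IP and 104 control reads over 8800 bp, 1.62-fold [1.29 to 2.06]), Pcdh18 (1.58-fold [1.03 to 2.48]) and Pcdh8. Pcdh8 encodes arcadlin, a protocadherin induced by neuronal activity. Its gene is 4541 bp long. A single island of 4600 bp covered its start and stopped short of its far end, though within 2 kb of it (141 IP and 62 control reads, 1.43-fold [1.05 to 1.96]). A further 5 KCl islands lay in the 50 kb around Pcdh8, of 1.47-fold to 5.40-fold, the most flanking islands of any member. Of the 4 delta-1 genes, Pcdh7 and Pcdh9 had an end island, of 11200 bp (350 IP and 142 control reads, 1.55-fold [1.27 to 1.89]) and 7800 bp (1.48-fold [1.16 to 1.88]). Pcdh11x had islands in the body alone, and Pcdh1 had a single one, 39.7 kb away. Pcdh20 had a weak island at its far end (1.53-fold [0.926 to 2.60]).

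Fat1, Fat3 and Fat4 each had a broad island at the start, and Fat2, which is known from cerebellar granule cells, had none within 50 kb. Fat4 encodes the receptor of the Dachsous ligand Dchs1 and had 209 IP and 67 control reads over 6200 bp, 1.96-fold [1.48 to 2.62]. Fat1 reached 1.66-fold [1.26 to 2.20] and Fat3 1.57-fold [1.15 to 2.17]. Of the Celsr genes, Celsr3, needed for axon tracts of the forebrain, had an island of 5000 bp at its start (124 IP and 55 control reads, 1.42-fold [1.02 to 1.98]). Its second island, at the far end (1.59-fold [0.940 to 2.77]), also lay within 2 kb of an end of Slc26a6. Celsr1 and Celsr2 had only flanking islands, that of Celsr1 at an end of Trmu and that of Celsr2 inside Sort1. Of the tip link genes, which join the stereocilia of hair cells, Pcdh15 had an end island (1.68-fold [1.02 to 2.89]) and Cdh23 did not.

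Of the 7 members known mainly from non-neural tissue (Cdh1, Cdh3, Cdh5, Cdh15, Cdh16, Cdh17 and Cdh26), 0 had an end island, compared with 23 of the other 34. These 7 are shorter, with a median of 46.1 kb against 142 kb, so length and tissue of expression cannot be told apart in this split. They lie in the bands under 50 kb and between 50 and 200 kb, where 20.3% and 39.9% of all genes had an end island. With 7 genes at such shares, a count of 0 carries little weight. Within 50 kb of its body, no KCl island was called at Cdh3, Cdh15, Cdh17, Cdh19, Cdh24, Cdh26 or Fat2. The single flanking island of Cdh16 lay at an end of Rrad, and that of Cdh23 at an end of Psap.

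**Figure D2:**
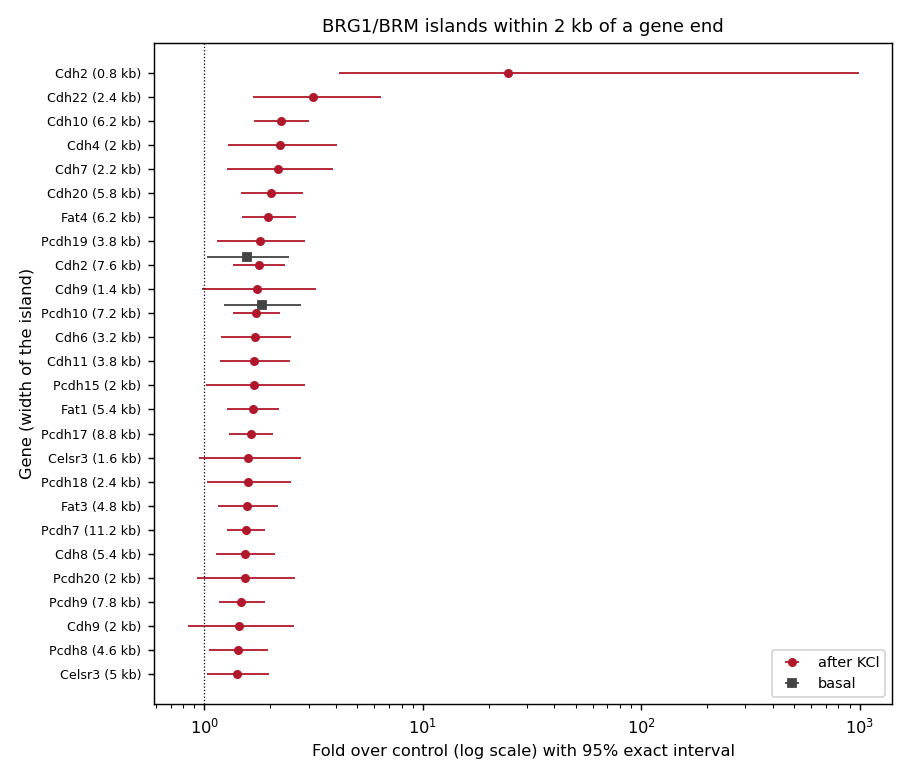
Fold over control (log axis) of the 26 KCl islands within 2 kb of an end of a member gene (red circles) and the 2 basal ones (dark squares), with 95% exact intervals and island widths beside the gene names. Apart from the 800 bp island of Cdh2 with 1 control read, KCl folds run from 1.42 to 3.14, and the basal intervals of Cdh2 and Pcdh10 overlap those after KCl.

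End islands of these genes were broad and of low fold. Their median width was 4200 bp and their median fold 1.69, compared with 2400 bp and 1.82 over all 4856 KCl islands at gene ends. The interval lay above 1 at 22 of the 26, in 21 members. A minimum of 2-fold left 6 members with an end island, Cdh2, Cdh4, Cdh7, Cdh10, Cdh20 and Cdh22, against 8.74% of all genes. Counting an island only by its midpoint left 15 members against 22.5% of all genes. Members lost this way had an island whose middle fell more than 2 kb inside the gene. Some of these islands were broad, such as that of Pcdh7 (11200 bp), and others were not, such as that of Pcdh15 (2000 bp). The shares of 8.74% and 22.5% were not weighted by length. Without these limits, such weighting raised the share from 25.2% to 38.6%. The members' excess over genes of like length under these limits was not tested.

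The end that carried the island was mostly the start, in members as in all genes. Of 4379 genes with a known strand and an end island, 3490 had it at the start alone, 408 at the far end alone and 481 at both. Strand was known for 28 members from the RefSeq promoter table, and 20 of these had an end island, 17 at the start alone, 1 at the far end alone and 2 at both. An island lay within 2 kb of the start of 19 of them (67.9%), against 22.7% of all 17492 genes with a known strand. One lay within 2 kb of the far end of 3 (10.7%), against 5.08%, namely Pcdh8, Pcdh20 and Celsr3. Of the 31 RefSeq promoters of these genes, which run from 250 bases before to 50 after a start, 19 (61.3%) were overlapped by a KCl island, against 22.3% of 21263 promoters of all genes. These shares of all genes were not weighted by length, and members are longer, with a median of 123 kb against 17.2 kb. For an island at either end, such weighting raised the share from 25.2% to 38.6%. For 5 members the promoter in this table lies far inside the gene span. Those of Pcdh15 and Cdh12, 46.7% and 57.6% of the way along, were covered, by islands of 2.57-fold [1.27 to 5.76] and 1.38-fold [0.941 to 2.06]. Those of Cdh18 (52.5% of the way along), Fat1 (17.1 kb inside) and Fat2 (25.2 kb inside) were not covered.

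The 6 covered promoters with the highest folds are shown, chosen by fold. They differ widely in base composition while each lies under a KCl island. The 250 bases before the start are given on the strand of the gene, 5′ to 3′, from RefSeq (GRCm38.p6), with CG dinucleotides in capitals. They are Cdh22 (chr2:165234738-165234987, minus strand), Pcdh15 (chr10:73821617-73821866, plus), Cdh10 (chr15:18820079-18820328, plus), Cdh20 (chr1:104768270-104768519, plus), Fat4 (chr3:38886690-38886939, plus) and Pcdh19 (chrX:133688994-133689243, minus).
Cdh22: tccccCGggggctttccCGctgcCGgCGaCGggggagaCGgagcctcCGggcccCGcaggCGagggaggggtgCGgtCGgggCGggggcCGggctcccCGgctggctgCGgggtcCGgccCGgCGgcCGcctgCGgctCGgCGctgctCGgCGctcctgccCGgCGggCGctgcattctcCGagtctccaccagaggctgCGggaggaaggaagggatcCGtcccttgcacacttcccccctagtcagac
Pcdh15: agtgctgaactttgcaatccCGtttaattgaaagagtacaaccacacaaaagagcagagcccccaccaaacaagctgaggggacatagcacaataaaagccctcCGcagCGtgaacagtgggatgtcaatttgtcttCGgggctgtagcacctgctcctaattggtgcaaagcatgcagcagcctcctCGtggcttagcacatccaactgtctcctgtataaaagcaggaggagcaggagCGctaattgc
Cdh10: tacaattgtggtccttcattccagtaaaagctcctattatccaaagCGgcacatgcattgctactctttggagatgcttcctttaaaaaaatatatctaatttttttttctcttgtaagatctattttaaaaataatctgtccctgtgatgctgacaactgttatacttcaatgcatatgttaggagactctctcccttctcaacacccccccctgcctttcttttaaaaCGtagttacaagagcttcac
Cdh20: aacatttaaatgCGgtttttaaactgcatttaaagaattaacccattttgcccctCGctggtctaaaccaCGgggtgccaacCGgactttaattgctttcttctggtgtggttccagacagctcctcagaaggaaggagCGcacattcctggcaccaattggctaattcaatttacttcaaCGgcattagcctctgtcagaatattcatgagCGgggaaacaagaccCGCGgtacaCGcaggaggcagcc
Fat4: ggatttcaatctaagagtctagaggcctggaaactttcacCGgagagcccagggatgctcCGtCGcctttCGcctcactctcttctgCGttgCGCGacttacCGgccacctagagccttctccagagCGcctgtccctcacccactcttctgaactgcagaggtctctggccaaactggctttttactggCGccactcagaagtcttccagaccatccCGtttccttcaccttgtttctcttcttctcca
Pcdh19: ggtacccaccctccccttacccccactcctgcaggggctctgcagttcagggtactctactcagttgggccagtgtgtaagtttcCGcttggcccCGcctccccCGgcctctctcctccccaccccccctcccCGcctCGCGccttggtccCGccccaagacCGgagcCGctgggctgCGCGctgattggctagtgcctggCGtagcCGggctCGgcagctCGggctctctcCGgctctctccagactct

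These stretches hold 30 CG dinucleotides at Cdh22, 16 at Pcdh19, 11 at Fat4, 10 at Cdh20, 6 at Pcdh15 and 2 at Cdh10. Over the whole 300 bases, member promoters with a KCl island had a median of 18 CG dinucleotides (range 2 to 38) and those without one a median of 6 (range 2 to 40). All promoters had medians of 25 with an island and 8 without. Cdh10 had the lowest count of the covered promoters. Celsr2 had the highest count of all member promoters, 40, and no island. The AP-1 motif TGANTCA and the cAMP response element TGACGTCA, searched on both strands of the 300 bases, were found in 0 of 31 member promoters, against 6.99% and 2.23% of all promoters. The E-box CACGTG was found in 1, that of Cdh15, against 7.84%. These counts describe the windows only.

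Inside the genes, long members carried many narrow islands. The bodies of the 41 members held 142 KCl islands, and 83 of them (58.5%) lay in 6 genes: Pcdh9 (18), Pcdh15 (17), Fat3 (16), Cdh13 (11), Cdh18 (11) and Cdh12 (10). Per length, the members held 12.7 islands per Mb [10.7 to 15.0, exact Poisson interval] and all genes 12.4. In the band of 500 kb and over, the members held 12.3 per Mb [9.83 to 15.2] and all genes 11.1. Both intervals include the density of all genes. These and later intervals of densities treat islands as independent counts. They leave out the spread between genes, such as 27.0 per Mb at Fat3 and 3.22 at Pcdh11x.

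**Figure D3:**
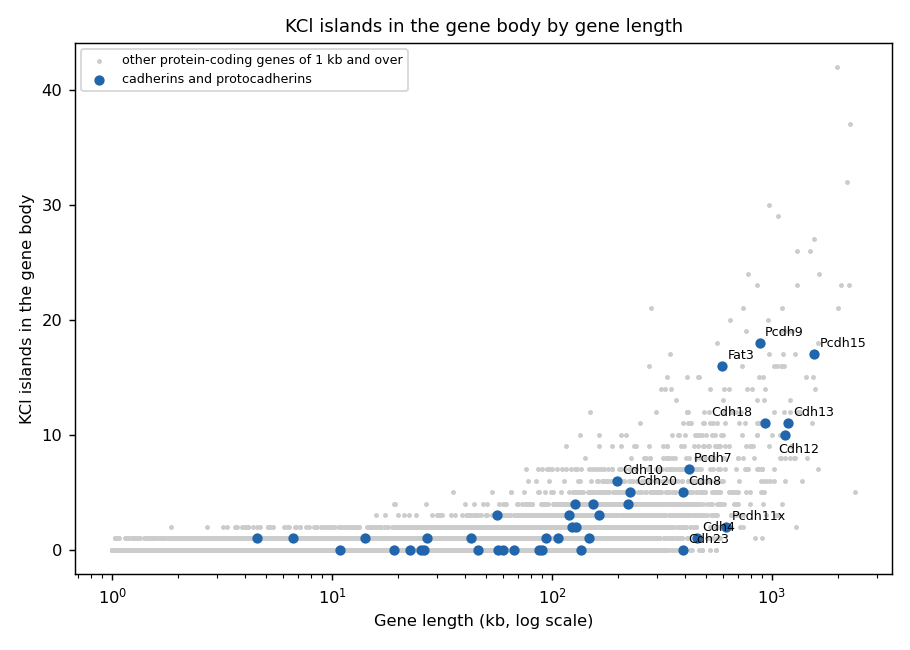
Number of KCl islands in the gene body (vertical axis) against gene length in kb (log axis) for the 41 members (blue) and other protein-coding genes of at least 1 kb (grey). Members follow the rise with length of other genes, with Pcdh9 and Fat3 in the upper part for their length and Pcdh11x (2), Cdh4 (1) and Cdh23 (0) at the bottom.

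Members of like length differed among themselves. Fat3, whose protein shapes the dendrites of retinal amacrine cells, had 16 islands in 592 kb (27.0 per Mb), whereas Pcdh11x had 2 in 620 kb (3.22 per Mb). Of all protein-coding genes of 500 kb and over, 82.8% had fewer body islands than Fat3 and 5.73% had fewer than Pcdh11x. Between 200 and 500 kb, Pcdh7 had 7 islands in 417 kb, Cdh8 5 in 393 kb, Cdh4 1 in 457 kb and Cdh23 none in 394 kb. Cdh10 had 6 islands in 197 kb, more than 98.7% of genes between 50 and 200 kb. It lies at the upper edge of that band, whose median length over all genes is 84.1 kb. Cdh20 had 5 in 227 kb, more than 70.5% of genes between 200 and 500 kb.

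Away from gene ends the members' body islands had a median fold of 2.88 and a median width of 1600 bp (118 islands), compared with 2.55 and 1600 bp over all genes. Among genes of 500 kb and over, the medians were 2.96 for members and 2.72 for all. Islands of at least 2-fold lay in member bodies at 9.22 per Mb [7.52 to 11.2], against 6.91 in all genes. In the band of 500 kb and over this was 10.4 [8.15 to 13.1] against 8.32, where the interval includes the value of all genes. Neither interval covers the spread between genes. The density of islands of at least 2-fold over all genes itself rose with length, from 5.68 per Mb under 50 kb.

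The largest body folds, taking the top island of each gene among those with control reads, came from narrow regions. At Cdh18, an 800 bp island (chromosome 15, 22759201 to 22760000) had 40 IP reads and 1 control read, 25.1-fold [4.26 to 1017]. At Pcdh11x, the delta-1 protocadherin gene of the X chromosome, a 600 bp island had 75 IP and 4 control reads, 11.8-fold [4.41 to 44.3]. At Cdh12 the value was 11.1-fold [3.60 to 55.5], with 53 IP and 3 control reads.
All of these intervals are wide because few control reads were counted. They were followed by Fat3 (10.7-fold [2.74 to 91.7]), Pcdh7 (10.5-fold [3.38 to 52.5]) and Cdh13 (10.2-fold [3.80 to 38.6]), the gene of T-cadherin, which is held to the membrane by a lipid anchor. Pcdh9 (7.38-fold [2.70 to 28.2]) and Pcdh15 (6.83-fold [3.32 to 16.3], 87 IP and 8 control reads) completed the 8 genes with the largest top island. A 200 bp island in Cdh12 had 26 IP reads and 0 control reads, 5.44-fold when 3 control reads are assumed as the floor (lower limit of the interval 4.12).

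**Figure D4:**
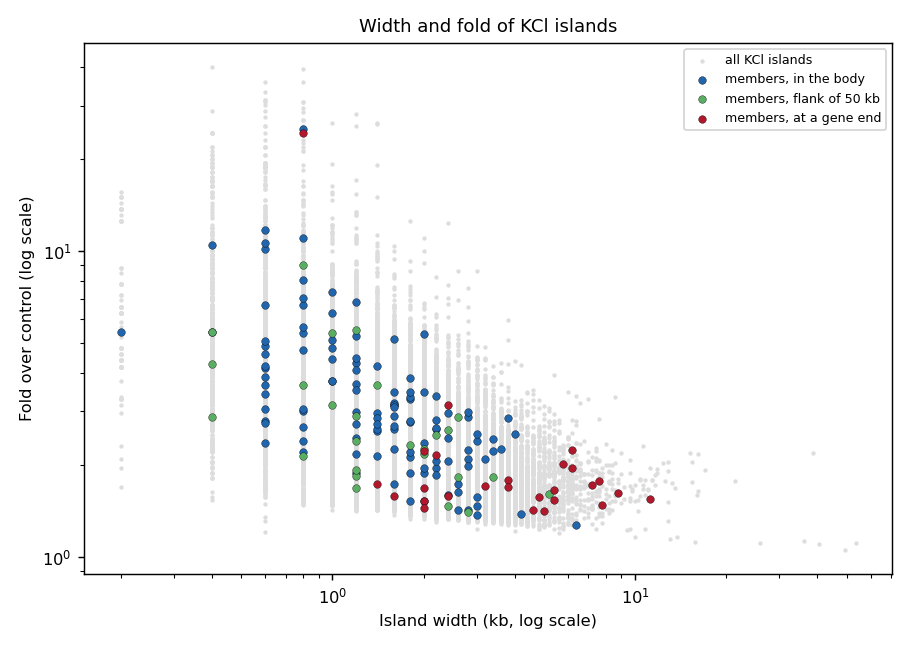
Fold over control against island width in kb (both axes log) for KCl islands of the members at gene ends (red), in the body (blue) and within 50 kb (green), over all KCl islands (grey). Over all KCl islands the median fold is 3.68 up to 1 kb and 1.73 over 4 kb, and the members' end islands occupy the wide, low part (median 4200 bp, 1.69-fold) and their body islands the narrower, higher part (1600 bp, 2.88-fold).

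Over the entire KCl list, wider islands had lower folds, with a median of 3.68 in 5476 islands of up to 1 kb, 2.47 in 7891 of over 1 to 2 kb, 1.91 in 6388 of over 2 to 4 kb and 1.73 in 1211 wider ones. The part of width in the lower folds at gene ends was not tested. Median IP density was 30.2 reads per kb in members' end islands and 40.7 in their body islands, and median control density was 11.1 and 8.54 reads per kb.

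Along the 6 genes with the most islands, gaps between neighbouring islands ranged widely. Pcdh9 had a median spacing of 31.3 kb between neighbouring islands and 1 gap of 322 kb. Cdh12 had a gap of 372 kb, Cdh13 one of 360 kb, Pcdh15 one of 286 kb and Cdh18 one of 199 kb. Fat3, the shortest of these and the one with the most islands per length, had a median spacing of 16.7 kb and a largest gap of 107 kb. Over the 9 members of at least 200 kb with a known strand, 4 equal stretches from start to far end held 17, 27, 19 and 20 of 83 body islands away from the gene's own ends. The corresponding shares were 20.5%, 32.5%, 22.9% and 24.1%, and over all such genes they were 23.7%, 26.8%, 26.0% and 23.5%.

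**Figure D5:**
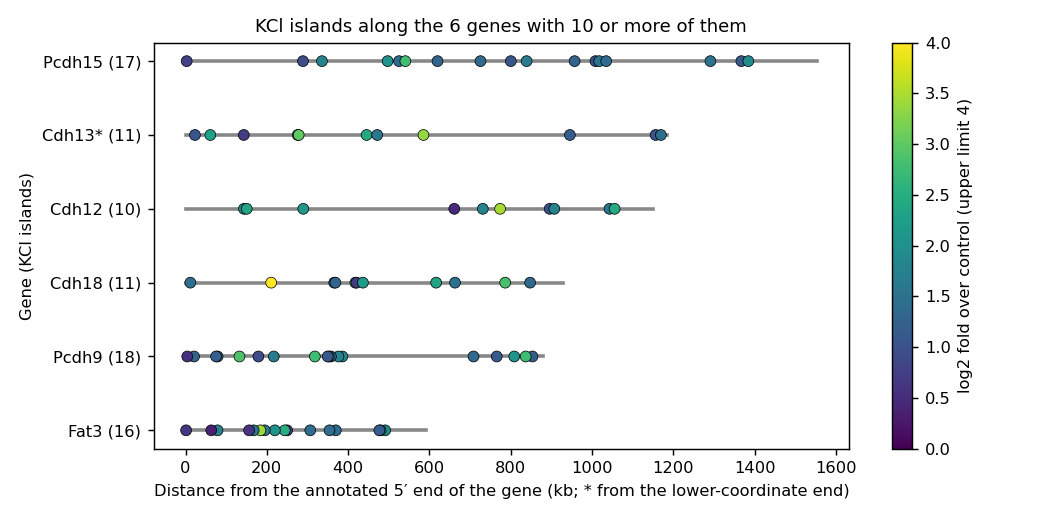
Positions of KCl islands (circles, coloured by log2 fold) along Fat3, Pcdh9, Cdh18, Cdh12, Cdh13 and Pcdh15, in kb from the annotated 5′ end (Cdh13 from its lower-coordinate end); grey lines show gene length and numbers the islands per gene. The largest gap is 372 kb in Cdh12, 322 kb in Pcdh9 and 107 kb in Fat3, the shortest gene.

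Of 64 genes that work with cadherins or are related to them, in 5 lists, 30 (46.9%) had a KCl island within 2 kb of an end, against 25.2% of all genes. With each gene given the share of its own length band, the value was 32.4%, or 20.8 genes. Among catenins and other armadillo partners, which link cadherins to actin, 6 of 16 did, against a band-weighted 6.09, led by Ctnnd2 (2.08-fold [1.50 to 2.95]), the neuronal delta-catenin gene, Ctnnal1 (1.88-fold [1.23 to 2.95]) and Pkp4 (1.85-fold [1.29 to 2.71]). The alpha-catenin gene Ctnna2, of 1098 kb, had 19 KCl islands in its body and 2 basal ones, the sole partner gene with a basal island. Of the Fat ligands and planar polarity partners of Celsr proteins, 7 of 13 had an end island, against a band-weighted 3.98, led by the receptor gene Fzd3 (2.48-fold [1.46 to 4.42]), Vangl1 (2.26-fold [1.44 to 3.68]) and Fjx1 (1.88-fold [1.33 to 2.71]).

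Actin regulators of the WAVE complex and its partners, which bind protocadherins, had an end island in 6 of 9 cases, against a band-weighted 3.4, led by Wasf1 (1.88-fold [1.23 to 2.98]), Nckap1 (1.80-fold [1.23 to 2.69]) and Cyfip2 (1.61-fold [1.03 to 2.60]). Genes of proteases and phosphatases that act on cadherins had one in 6 of 7 cases, against a band-weighted 2.69, led by the sheddase gene Adam10 (2.60-fold [1.71 to 4.08]), Ptprk (2.22-fold [1.61 to 3.13]) and Ptprm (2.19-fold [1.36 to 3.64]). Among 19 other cadherin superfamily genes, 5 had one, against a band-weighted 4.61, led by Cdhr3 (2.98-fold [1.80 to 5.17]), Clstn3 (2.43-fold [1.39 to 4.52]) and Clstn2 (2.32-fold [1.52 to 3.62]). All 3 calsyntenin genes, which encode synaptic membrane proteins, were among these 5.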

How the data were processed

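Per the submitters' processing notes, BWA aligned the reads to mm10 (GRCm38) and SICER 1.0 found the islands. File names give 200 bp windows, 600 bp gaps and an FDR of 0.01; they also carry "rmdp", which may mean that duplicates were removed and is spelled out in no source used here. Both lists come from single IP libraries set against a control. The authors deposited for each island its raw count of IP reads and of control reads, a p-value with its FDR, and a fold, which is the ratio of these counts after division by a constant per library (0.880 basal, 1.59 KCl). Total depths were not given and inputs were not analysed separately.

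Islands were converted to 1-based positions and counted by an overlap of at least 1 bp within 2 kb of either gene end, in bodies, and within 50 kb. Shares over all protein-coding genes and over length bands (edges at 50, 200 and 500 kb) stand beside the members' counts. A fold with 0 control reads was taken against a floor of 3. Counting was tested on simulated islands and against bedtools 2.31.1. Python 3.11.15, pandas 2.3.3 and scipy 1.17.1 were used. The 28 members with a row in the RefSeq promoter table gave strand and sequence.

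Members, lists and windows were chosen with earlier results of these data known. Named genes are those with a basal island, the 12 largest end folds, the 10 highest body counts, the 8 genes with the largest single body island by fold (at least 20 IP reads and 1 control read), members without an island and 3 genes per partner list. Further members are given to complete their subgroup, having been picked with their values in view, like Ctnna2 and the loci described last. Folds by island width and the partners' band-weighted values were added after the data were seen.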

Additional observations from a re-analysis of the deposited data

How the results depend on the processing

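Of 58 alternative values for 10 results, 41 stayed within 1.5 times the main count, or within the interval of the main value. Of the members with a KCl end island (23), a minimum of 2-fold left 6 and counting by midpoint left 15. With the KCl list shortened to the 711 islands of the basal list, ranking by p left 1 member at ends, 5 in bodies and 7 within 50 kb (all genes 0.114%, 1.30% and 2.42%), and ranking by fold left 1, 6 and 9 (0.0685%, 1.20% and 2.65%). These shares of all genes were not weighted by length, and members are longer, with a median of 123 kb against 17.2 kb. The density in member bodies moved from 12.7 to 10.6 per Mb at an FDR of at most 1e-05 (all genes 8.83) and to 9.22 at a minimum of 2-fold (all genes 6.91). In basal neurons, an FDR of at most 1e-05 left 0 members at ends, 1 in bodies and 1 within 50 kb, a minimum of 2-fold left 0, 1 and 1, and counting by midpoint left 1 in bodies. The shortened, filtered and midpoint counts fall by construction. Leaving out the 1% of islands with the highest control density changed no count of members. No paired analysis was possible because each condition had 1 IP library. Leaving out a replicate was not possible for the same reason. Depth limits the widths of the intervals at narrow islands, where 1 to 4 control reads were counted.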

Other observations

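Several members sit together, some of them in long gene-poor regions. From Cdh9 to Cdh18 on chromosome 15 (16728550 to 23477491), 6 protein-coding genes share 6.75 Mb with 72 KCl islands, of which 29 lay in the bodies of Cdh9, Cdh10, Cdh12 and Cdh18 and 43 outside them. The density was 10.7 per Mb [8.35 to 13.4], against 9.08 over chromosome 15. Between the bodies of these 4 genes it was 9.90 per Mb. This region held 2 basal islands.

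From Pcdh17 through Pcdh20 to Pcdh9 on chromosome 14 (84443563 to 93892834), 78 KCl islands lay in 9.45 Mb, 8.25 per Mb [6.52 to 10.3], against 7.87 over the chromosome. From Cdh8 to Cdh11 on chromosome 8, 37 islands lay in 3.76 Mb, 9.84 per Mb [6.93 to 13.6], against 8.28. From Cdh20 through Cdh7 to Cdh19 on chromosome 1, a region with 24 protein-coding genes, 37 islands lay in 6.21 Mb. That is 5.96 per Mb [4.20 to 8.21], below the 8.63 of its chromosome. The neighbouring epithelial genes Cdh3 and Cdh1 had 0 islands in 0.159 Mb, where the interval of a count of 0 reaches 23.1 per Mb.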
